A study of Rattus norvegicus with 6 samples.

Results

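The genes described here encode the parts of the cardiac sarcomere and of the Z-disc at its ends. Of 31 rat genes listed by symbol, 25 were found through the RefSeq accession of a probe, among 27457 features (15437 named genes and 12020 probes that received no name). The 6 listed genes that no probe accession matched were Ttn, Ldb3, Myoz2, Nebl, Synpo2l and Mypn, and they were not analysed here. Where a gene had several probes, the brightest stood for it.

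The 6 one-colour arrays came from Sprague Dawley rats, given as 13 weeks old, in a study of stem cells cultured from adipose tissue (ADSCs) that carried 124I-HIB, a fat-soluble tracer with radioactive iodine. Among the 4 myocardial arrays were 1 of sham-operated heart, 1 of infarcted heart into whose muscle PBS had been injected, and 2 of infarcted heart given 124I-HIB-labelled ADSCs the same way. These 2 are referred to as treated, replicates 1 and 3 by their labels. All 4 are labelled as 21 days after the sham operation, so the time since infarction is unclear. The 2 cell arrays were of unlabelled and of 124I-HIB-labelled ADSCs after 14 days in culture. No array came from heart given unlabelled ADSCs, so the cells and their label cannot be told apart, and the labels do not say whether the treated pair came from separate animals.

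A level is the log2 processed signal of a probe minus the 75th percentile of its array, so 0 is the signal at that percentile. That percentile ranged from a signal of 771.9 in sham to 1275.5 in treated replicate 1 among the myocardial arrays, and was 2360.3 and 2615.3 in the cells. Between 64.4% and 69.4% of probes were well above background, and saturation was absent from all non-control spots. Precision is limited by the number of arrays, since sham, PBS and both kinds of cells have 1 array each. Of 22 cardiomyocyte markers outside the sarcomere, 21 were well above background on the 4 myocardial arrays, and all 8 mesenchymal stromal markers were so on both cell arrays.

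In the sarcomere, thick filaments of myosin slide along thin filaments of actin, and troponin and tropomyosin make that sliding depend on calcium. Z-disc proteins anchor the thin filaments, carry force between neighbouring sarcomeres and take part in the response to stretch, while chaperones and ubiquitin ligases build and dismantle the whole. In heart muscle these genes are transcribed at high rates, and regulators such as serum response factor (which binds the CArG box), MEF2, TEAD factors (which bind the M-CAT element) and GATA4 are known to drive many of them.

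The promoter windows of 5 genes are shown because these stood at the ends of the difference between PBS and sham: Fhl2, Tnnt2, Myl3 and Tpm1 were the 4 lowest on the PBS array, and Pdlim5 was one of the 2 highest. Each covers 250 bases before to 50 after the gene's start, 5′ to 3′ on the gene's strand, from RefSeq (GRCr8), at chr9:52954491-52954790 (minus strand) for Fhl2, chr13:49818873-49819172 (plus) for Tnnt2, chr8:119616844-119617143 (plus) for Myl3, chr8:76543366-76543665 (minus) for Tpm1 and chr2:233793427-233793726 (minus) for Pdlim5. Capitals mark matches to the CArG box, the MEF2 site, the M-CAT element (CATTCC) or the GATA site (AGATAA), read on both strands.
Fhl2: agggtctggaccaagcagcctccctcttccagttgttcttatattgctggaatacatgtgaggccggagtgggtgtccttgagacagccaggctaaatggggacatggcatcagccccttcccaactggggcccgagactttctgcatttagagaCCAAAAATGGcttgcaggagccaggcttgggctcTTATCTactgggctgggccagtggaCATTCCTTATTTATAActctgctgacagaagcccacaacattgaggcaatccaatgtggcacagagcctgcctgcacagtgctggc
Tnnt2: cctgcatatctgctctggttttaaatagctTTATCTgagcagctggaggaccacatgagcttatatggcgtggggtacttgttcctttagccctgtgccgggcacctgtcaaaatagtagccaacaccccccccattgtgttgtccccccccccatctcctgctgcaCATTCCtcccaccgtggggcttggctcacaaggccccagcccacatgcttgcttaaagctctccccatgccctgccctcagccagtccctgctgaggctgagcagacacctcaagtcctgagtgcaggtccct
Myl3: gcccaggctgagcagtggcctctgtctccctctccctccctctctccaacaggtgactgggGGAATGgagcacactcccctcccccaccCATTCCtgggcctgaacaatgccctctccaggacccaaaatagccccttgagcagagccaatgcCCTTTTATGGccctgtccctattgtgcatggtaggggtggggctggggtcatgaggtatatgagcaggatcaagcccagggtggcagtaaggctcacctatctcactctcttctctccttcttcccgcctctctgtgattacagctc
Tpm1: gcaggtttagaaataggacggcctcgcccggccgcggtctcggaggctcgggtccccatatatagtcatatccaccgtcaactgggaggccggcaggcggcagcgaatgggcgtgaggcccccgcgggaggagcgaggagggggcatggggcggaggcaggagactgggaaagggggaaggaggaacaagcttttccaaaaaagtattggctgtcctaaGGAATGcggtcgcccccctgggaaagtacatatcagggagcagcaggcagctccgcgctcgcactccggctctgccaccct
Pdlim5: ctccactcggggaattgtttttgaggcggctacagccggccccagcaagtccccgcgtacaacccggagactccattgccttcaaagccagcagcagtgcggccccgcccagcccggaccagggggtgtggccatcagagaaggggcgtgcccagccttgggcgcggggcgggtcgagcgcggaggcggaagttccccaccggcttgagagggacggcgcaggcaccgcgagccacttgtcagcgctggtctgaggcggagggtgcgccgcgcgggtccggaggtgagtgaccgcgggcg

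All 4 kinds of motif lay in the Fhl2 window: a CArG box from position -95, a GATA site on the opposite strand from -61, an M-CAT element from -36 and, directly after it without overlap, a MEF2 site from -30. Myl3 held a CArG box from -97 and 2 M-CAT elements, and Tnnt2 held an M-CAT element from -83 with a GATA site on the opposite strand from -220. The Tpm1 window held a single M-CAT element, and these letters did not occur in that of Pdlim5. Over the 31 listed genes, 23 had a window in the table. A CArG box occurred in 5 of the 23 (Actc1, Fhl2, Ldb3, Myl3 and Nebl) and in 1.64% of the 27457 promoters in all. The MEF2 site occurred in 5 (Fhl2, Mybpc3, Myoz2, Synpo2l and Ttn) against 3.37%, the M-CAT element in 9 against 13.9%, and the GATA site in 4 against 11.3%. At least 1 of the 4 motifs was present in 16 windows of the 23, against 27.0% of all promoters. These matches describe the sequence and were not tested against the array values.

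All 25 genes were well above background on the 4 myocardial arrays. On the cell arrays 14 of the 25 were well above background on both and 11 on neither, whereas 93.8% of the 16947 features measured on the 4 myocardial arrays were measured on both cell arrays. The spots of a probe mostly agreed on the myocardial arrays, with a median SD of 0.07 between spots on the log2 scale. The highest value, 0.44, was that of Cryab in treated replicate 1, where Tnni3 had 0.429 and Actc1 0.354.

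**Figure D1:**
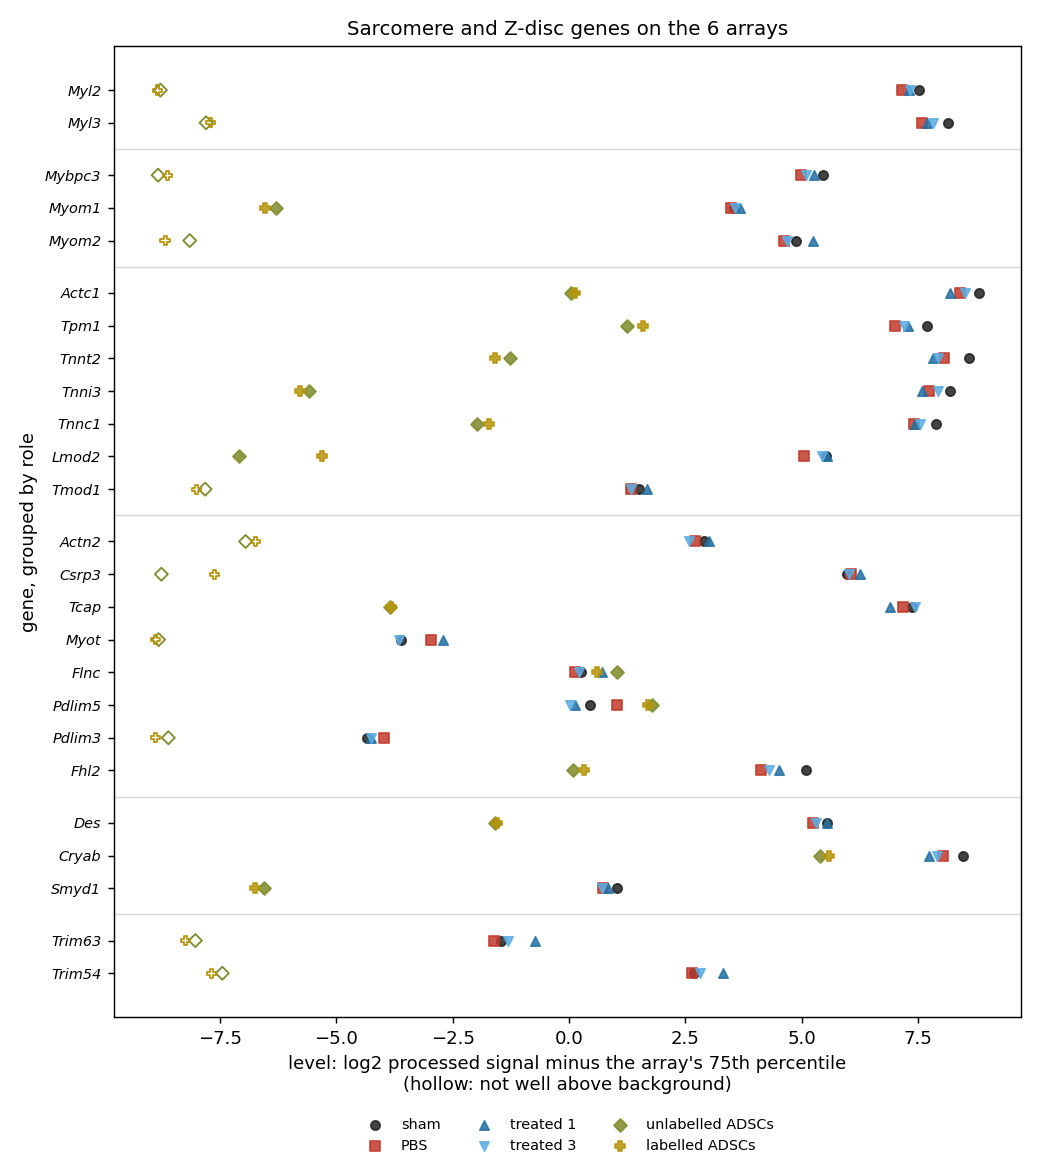
Level of each of the 25 genes on the 6 arrays (log2 processed signal minus the 75th percentile of the array), grouped by role; hollow symbols were not well above background. Of the 14 genes measured on all 6 arrays, 12 had the 4 myocardial arrays above both cell arrays, and Pdlim5 and Flnc were the 2 exceptions; levels of different genes come from different probes and cannot be set against each other.

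The study's first question was how PBS-injected infarcted hearts compared with sham hearts. Relative to the 75th percentile, 21 of the 25 genes were lower on the PBS array and 4 were higher, with a median difference of -0.30 (log2), but 14 rather than 21 were lower after quantile normalization and in the deposited log2 table. Over 6 settings of scaling and probe choice, 12 genes were lower in PBS under each, 3 (Myot, Pdlim5 and Csrp3) were higher under each, and 10 reached or crossed 0 under at least 1. These settings overlap and are not 6 separate checks, as set out with the processing. None of the 25 was 2-fold apart, where 3.68% of 17260 features were, and 55.5% of those features were lower by any amount. With 1 array in each group there was no test. For scale, the 2 treated arrays differed from each other by -0.94 to 0.53 over the same genes. In tissue, fewer cardiomyocytes and less of these RNAs in each cannot be told apart.

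The lower values went with brightness over the whole array. Of 700 features with a mean myocardial level of 5 or more, 620 were lower on the PBS array, with a median of -0.30. The 13 sarcomere genes in that range had 12 lower and a median of -0.47. The 12 dimmer ones had 9 lower and a median of -0.16, beside a median of -0.05 over all features. Among features with levels from 6 to 8 the median was -0.37, with 10th and 90th percentiles of -0.65 and -0.06. What brightness contributes to the sarcomere genes' values was not tested.

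**Figure D2:**
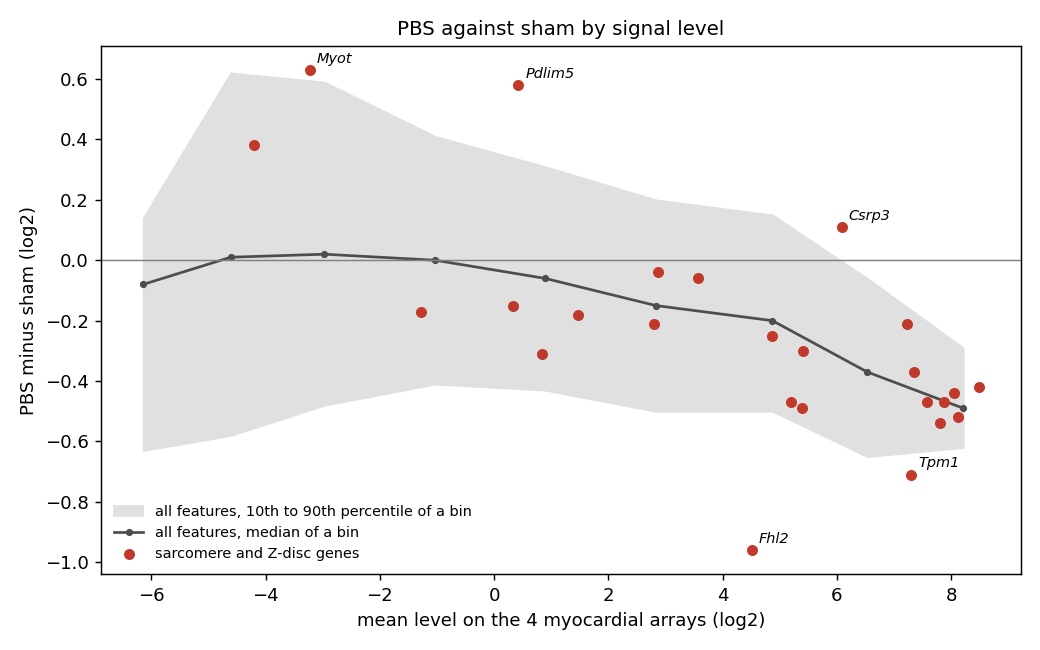
PBS minus sham (log2) against the mean level on the 4 myocardial arrays for the 25 genes (points) and for all features measured on those arrays (line, median of a bin; band, 10th to 90th percentile). The median of all features falls from 0.01 in the bin centred near -4.61 to -0.49 in the bin near 8.21, and Fhl2 at -0.96 and Pdlim5 at 0.58 are among the genes outside the band.

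Fhl2, which encodes a LIM-domain adaptor of the Z-disc and I-band that also binds transcription factors, stood furthest below sham on the PBS array. Its level was 5.09 in sham, 4.12 in PBS, 4.52 in treated replicate 1 and 4.30 in treated replicate 3. Sham was the highest of the 4, and the PBS array was 1.95-fold lower. The difference between PBS and sham of -0.96 stayed between -0.96 and -0.77 over the 6 settings. However, the 2 Fhl2 spots on the PBS array had an SD of 0.397 (log2), and those in treated replicate 1 had 0.265.

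The thin filament genes were all below sham on the PBS array, 7 of 7, with a median of -0.47, and lay between -0.27 and 0 after quantile normalization. Tpm1, which encodes the tropomyosin that blocks myosin sites on actin at rest, had levels of 7.70 in sham, 7.0 in PBS, 7.28 in treated replicate 1 and 7.20 in replicate 3. Tnnt2, the cardiac troponin T that ties troponin to tropomyosin, stood at 8.59, 8.07, 7.83 and 7.94 on the same arrays in that order. Actc1, cardiac alpha-actin, stood at 8.82, 8.40, 8.20 and 8.52. Sham was the highest array for each of these, but this did not hold for Actc1 after quantile normalization or in the deposited table, nor for Tpm1 with the mean of its probes.

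Tnni3, the inhibitory troponin subunit, had levels of 8.20 in sham, 7.73 in PBS, 7.59 in treated replicate 1 and 7.93 in replicate 3. Tnnc1, the calcium-binding subunit, had 7.88, 7.41, 7.44 and 7.54 in the same order. With Tnnt2, the 3 troponin subunits shared the order of sham above all infarcted arrays under the 75th percentile scaling. After quantile normalization Tnnt2 kept that order with a difference of -0.04 between PBS and sham, but Tnni3 (0) and Tnnc1 (-0.01) did not, and Tnni3 in treated replicate 3 stood 0.09 above sham. The deposited table gave -0.04, -0.02 and 0 for Tnnt2, Tnni3 and Tnnc1. The regulators of filament length did not share this order. Lmod2, a leiomodin that lengthens thin filaments, had 5.53 in sham, 5.05 in PBS, 5.54 in treated replicate 1 and 5.43 in replicate 3. Tmod1, the tropomodulin that caps their pointed ends, had 1.51, 1.33, 1.68 and 1.34. Sham lay inside the range of the infarcted arrays for both.

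Both myosin light chains were lower on the PBS array. Myl3, the ventricular essential light chain, had levels of 8.14 in sham, 7.59 in PBS, 7.69 in treated replicate 1 and 7.83 in replicate 3, with no infarcted array at the sham level. After quantile normalization its difference between PBS and sham was -0.05, and the treated pair stood 0.05 and 0.02 above sham. Myl2, the ventricular regulatory light chain, had 7.53, 7.16, 7.31 and 7.34. The direction of Myl2 depended on the scaling: the difference between PBS and sham was -0.37 here and 0.06 after quantile normalization.

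Of the thick filament and M-band genes, Mybpc3 differed most between PBS and sham. This gene, which encodes cardiac myosin-binding protein C, had levels of 5.45 in sham, 4.98 in PBS, 5.26 in treated replicate 1 and 5.09 in replicate 3. All infarcted arrays were below sham. Myom1 and Myom2, the myomesins that link thick filaments at the M-band, had differences between PBS and sham of -0.06 and -0.25. For Myom2 the treated pair straddled sham (4.88), at 5.24 and 4.69, and for Myom1 the 4 arrays lay between 3.49 and 3.67.

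The Z-disc genes split, with 4 higher and 4 lower on the PBS array (5 and 3 after quantile normalization, where Tcap turned to 0.20). Pdlim5, a PDZ and LIM protein bound to alpha-actinin, had levels of 0.46 in sham, 1.04 in PBS, 0.14 in treated replicate 1 and 0.03 in replicate 3. The PBS array was the highest of the 4 and both treated arrays were the lowest. Myot, or myotilin, which bundles actin at the Z-disc, had levels of -3.60, -2.97, -2.71 and -3.65 in the same order. Sham and treated replicate 3 were low and the other 2 arrays high, so the treated pair differed by 0.94. The PBS array was 1.50-fold above sham for Pdlim5 and 1.55-fold for Myot, and these differences were above 0 under all 6 settings. That of Pdlim5 stayed between 0.58 and 0.64, while that of Myot was 0.58 to 0.68 under 5 settings and fell to 0.11 with normexp background correction.

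Pdlim3, a related PDZ and LIM protein, had levels from -4.35 in sham to -3.97 in PBS. With normexp correction it turned, and PBS and the treated pair differed from sham by -0.14, -0.35 and -0.19. Csrp3, the muscle LIM protein, had 5.97 in sham, 6.07 in PBS, 6.25 in treated replicate 1 and 6.01 in replicate 3. It was the single gene of the 25 with all infarcted arrays above sham under every setting, by 0.04 at the least here. Actn2, the alpha-actinin that crosslinks actin at the Z-disc, and Flnc, filamin C, had differences between PBS and sham of -0.21 and -0.15. Tcap, or telethonin, which caps titin in the Z-disc, had 7.38 in sham, 7.17 in PBS, 6.90 in treated replicate 1 and 7.43 in replicate 3. For Actn2, Flnc and Tcap sham lay inside the infarcted range.

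Cryab, a small heat-shock chaperone of desmin and titin, had levels of 8.48 in sham, 8.04 in PBS, 7.74 in treated replicate 1 and 7.91 in replicate 3. Its 2 spots had an SD of 0.437 (log2) in treated replicate 1 and 0.306 in replicate 3. Smyd1, a muscle methyltransferase needed for myosin assembly, had 1.04, 0.73, 0.83 and 0.71. Des, the intermediate filament that ties Z-discs together, had 5.54, 5.24, 5.54 and 5.31. Cryab and Smyd1 were below sham on all infarcted arrays (after quantile normalization Cryab in PBS stood 0.02 above it), while Des in treated replicate 1 equalled sham within 0.01. The ubiquitin ligases Trim63 and Trim54, muscle RING-finger proteins that mark sarcomere proteins for breakdown, differed by -0.17 and -0.04 between PBS and sham. Both were highest in treated replicate 1, at -0.73 for Trim63 (sham -1.45, PBS -1.62, treated replicate 3 -1.31) and at 3.32 for Trim54 (sham 2.69, PBS 2.65, treated replicate 3 2.81).

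**Figure D3:**
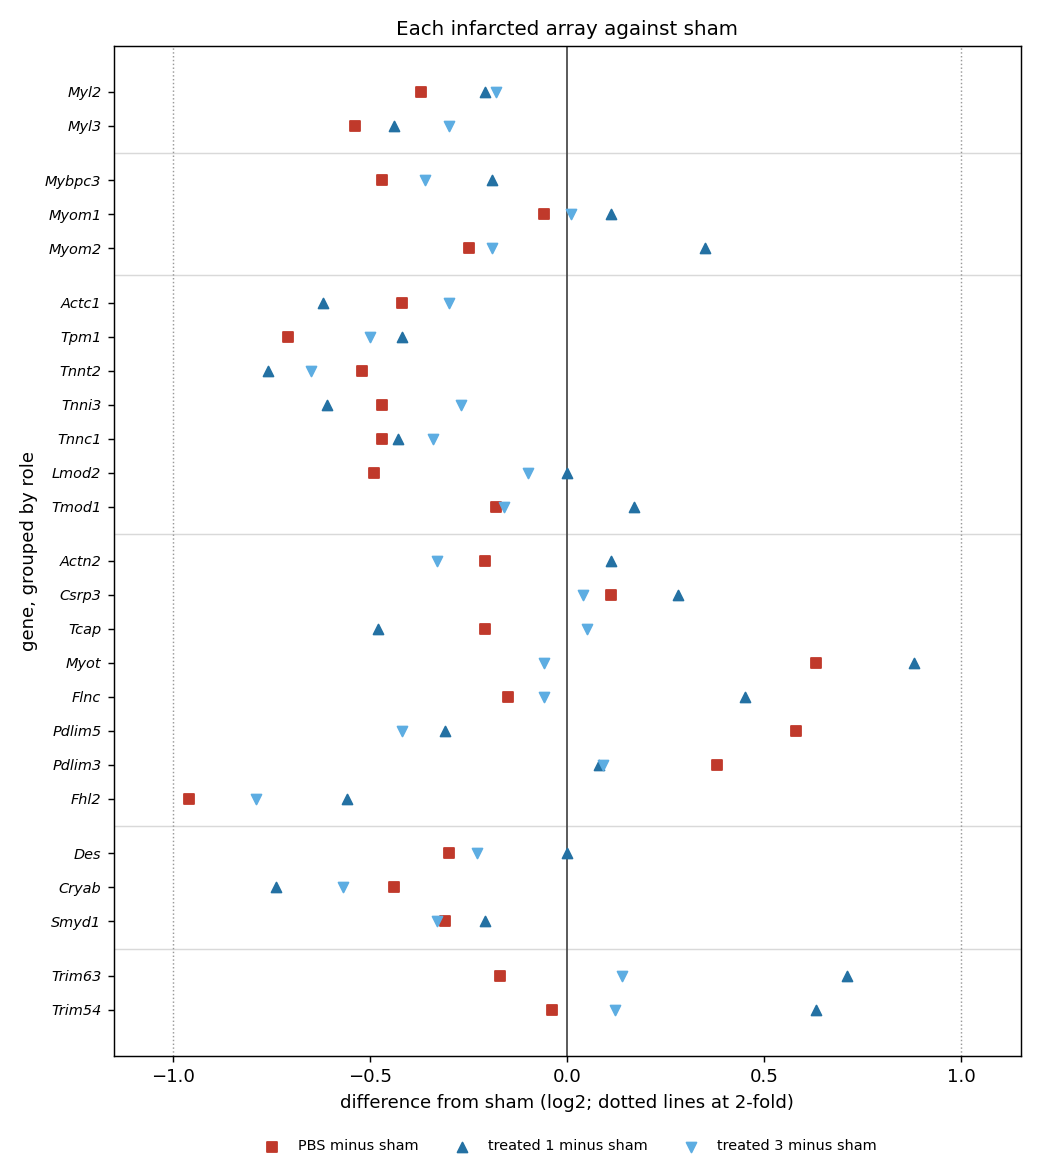
Difference of each infarcted array from sham (log2) for the 25 genes, grouped by role, with 1 symbol per array and dotted lines at 2-fold. For 11 genes the 3 symbols lie left of 0 and for 2 they lie right of it under the 75th percentile scaling (5 and 5 after quantile normalization), and no symbol reaches 2-fold.

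Taking PBS and treated arrays as 1 group of infarcted myocardium against sham, 11 of the 25 genes had all 3 infarcted arrays below sham, where 34.4% of features did: Myl2, Myl3, Mybpc3, Actc1, Tpm1, Tnnt2, Tnni3, Tnnc1, Fhl2, Cryab and Smyd1. For Csrp3 and Pdlim3 all 3 lay above, against 24.9% of features (Pdlim3 lay below with normexp background correction), and for 12 genes sham lay inside the range. Of the 700 features with a mean myocardial level of 5 or more, 615 had an infarcted mean below sham, with a median of -0.25. The 13 sarcomere genes in that range had 12 lower and a median of -0.41. Fhl2, Mybpc3, Smyd1 and Tnnt2 kept all 3 infarcted arrays below sham under all 6 settings, which are not independent of each other. The count of 11 became 5 after quantile normalization and in the deposited log2 table, where 29.1% and 28.4% of features lay below, and 13 with normexp, where 50.9% did. Those shares put the sarcomere genes below the background in the first pair of settings and near it with normexp. The count was 11 with the percentile over probes above background on all arrays and 10 with the mean of a gene's probes. There 28.2% and 34.5% of features lay below, so the sarcomere genes were above the background, as under the main setting. In the limma fit over 19611 features, none of the 25 passed an adjusted p of 0.05 (Benjamini-Hochberg), and 1 feature did in all (0.0051%). At an unadjusted p under 0.05, 4 were lower and none higher, beside 3.61% of features lower and 69 of the 700 bright features.

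Those 4 were Fhl2, Tnnt2, Cryab and Tpm1. Fhl2 differed from sham by -0.77 ± 0.22 (SE) with an unadjusted p of 0.022 and an adjusted p of 0.53 in limma. Tnnt2 differed by -0.64 ± 0.17, with an adjusted p of 0.529 in limma. Cryab and Tpm1 had differences of -0.58 ± 0.19 and -0.54 ± 0.19, with adjusted p of 0.568 and 0.588 in limma. The 95% intervals of the differences excluded 0 for each of them before adjustment, the widest being -1.36 to -0.18 for Fhl2. After quantile normalization the difference was -0.62 for Fhl2, but -0.11 for Tnnt2, -0.08 for Cryab and -0.15 for Tpm1, and Tpm1 was at 0.01 with the mean of its probes. Because sham is a single array, the fit assumes that it varies like the infarcted ones, and each p-value reflects the variation among these arrays alone, part of which may be technical.

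**Figure D4:**
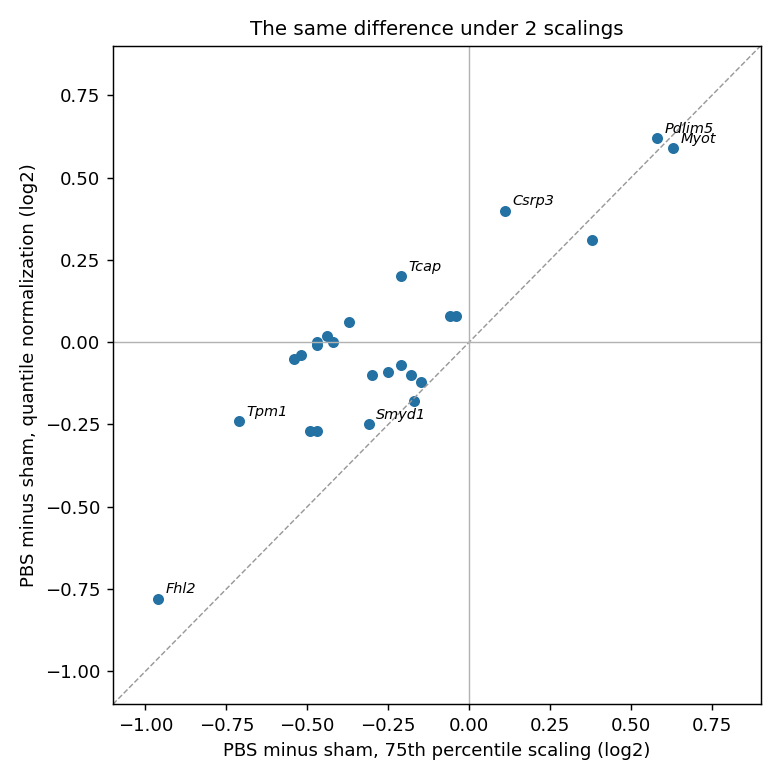
PBS minus sham (log2) of the 25 genes with the 75th percentile scaling (x axis) against quantile normalization (y axis); the dashed line marks equal values. Most points lie above the line, 14 rather than 21 genes are below 0 on the y axis, and Fhl2 (-0.96 and -0.78), Pdlim5 (0.58 and 0.62) and Myot (0.63 and 0.59) keep nearly the same value on both axes.

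The study next asked how labelled ADSCs changed infarcted myocardium, by setting the treated pair against PBS. In the limma fit none of the 25 genes, and none of 19611 features (0%), passed an adjusted p of 0.05. Of the 25, 18 were higher and 7 lower than in PBS, where 51.6% of features were higher, and the median was 0.12 beside 0.01 over all features. Of the 700 features with a mean myocardial level of 5 or more, 444 were higher, with a median of 0.09. The 13 sarcomere genes in that range had 9 higher and a median of 0.08. At an unadjusted p under 0.05 there was 1 gene of the 25, where 9.67% of features were. That gene was Pdlim5, at 0.09 ± 0.08 (SD, n = 2) in the treated pair and 1.04 in PBS. It was 1.93-fold lower in treated myocardium (log2 difference -0.95 ± 0.17 SE, unadjusted p = 0.00833, adjusted p = 0.351, limma). The difference was -0.89 with treated replicate 1 alone and -1.01 with replicate 3 alone, the latter being the only difference of 2-fold or more for any of these genes between 2 myocardial arrays (2.54% of features were 2-fold apart in that pair).

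The ligases and Lmod2 stood at the other end. Trim63 was 0.60 ± 0.32 (SE) and Lmod2 0.43 ± 0.17 above PBS, with adjusted p of 0.666 and 0.57 in limma. For Trim63 the 2 treated arrays differed by 0.58, about the size of the difference itself. Against sham, treated myocardium had 16 genes lower (55.6% of features were) and 9 higher, with a median of -0.20 that turned to 0.04 after quantile normalization. Of the 700 features with a mean myocardial level of 5 or more, 599 were lower, and of the 13 sarcomere genes among them 12 were. None of the 25 passed an adjusted p of 0.05 (0% of features), and 3 were lower at an unadjusted p under 0.05, beside 4.23% of features. They were Tnnt2 (-0.70 ± 0.17), Fhl2 (-0.67 ± 0.19) and Cryab (-0.65 ± 0.18), with adjusted p of 0.452, 0.49 and 0.485 in limma. After quantile normalization Fhl2 was at -0.54, but Tnnt2 was at -0.14 and Cryab at -0.13 (-0.18 and -0.10 in the deposited table). Trim63 (0.43 ± 0.32) and Myot (0.41 ± 0.47) were the highest of the 25 in this comparison and did not pass. PBS and sham each enter several of these comparisons, so the comparisons are not independent of each other.

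The treated arrays also differed between themselves, mostly in the dimmer genes. Of the 12 genes with mean levels under 5, 11 were lower in treated replicate 3 than in replicate 1, with a median of -0.39. The bright 13 had 8 higher and 5 lower. The largest gaps were in Myot (-0.94), Trim63 (-0.58), Myom2 (-0.55), Trim54 (-0.51) and Flnc (-0.51), and Tcap went the other way by 0.53. Over all features 41.8% were lower in replicate 3, and the median was 0.04.

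Cell type markers that differed between sham and PBS are given beside these values. Each summed signal covers all genes of a list on the array, including those not well above background. The 21 measured cardiomyocyte markers outside the sarcomere had 15 lower on the PBS array, with a median of -0.42. The summed signal of all 22 (in units of the 75th percentile) was 1885.1 in sham, 1361.5 in PBS, and 1344.7 and 1447.8 in the treated pair. The summed signal of the 25 sarcomere genes was 2858.5, 2102.5, 2050.1 and 2251.3 on the same arrays. The sum over the 9 atrial markers on the array was 176.4 in sham, 462.9 in PBS, and 174.6 and 150.9 in the treated pair. Of the 6 measured in both sham and PBS, 5 were higher in PBS and 1 lower. Myl7, the atrial regulatory light chain, stood at -0.47 in sham and 7.60 in PBS. Myl4, the highest atrial marker in sham, went the other way, from 7.33 to 7.10. Without Des, which is itself one of the 25, the smooth muscle and myofibroblast markers had 5 of 6 higher in PBS, with a median of 0.79 and Acta2 at 1.94. The summed signal of the 8 on the array was 18.5 in sham, 19.9 in PBS, and 19.6 and 23.8 in the treated pair. Of 10 measured fibroblast markers 9 were higher in PBS, with a median of 0.32 and Postn highest at 1.55. The sum over the 11 on the array was 80.6 in sham, 94.0 in PBS, and 67.5 and 75.9 in the treated pair. The mesothelial sum was 0.6 in sham and both treated arrays and 3.6 in PBS. Of the 2 mesothelial markers measured in both sham and PBS, 1 was higher and 1 lower in PBS. Msln, or mesothelin, stood at -6.85 in sham, where it was not well above background, and at 0.94 in PBS. Adipoq, the adipocyte hormone adiponectin, stood at -7.78 in sham, also not well above background, and at -2.66 in PBS, although the adipocyte sum was 29.8 in sham and 23.8 in PBS. Postn, Msln and Adipoq were chosen after their values were seen. The erythroid sum was 679.4 in sham and 383.7 in PBS. The part of these markers in the sarcomere values was not tested. Of 46 other sarcomere and Z-disc genes on the array, 24 were higher and 20 lower in PBS among those measured, with a median of 0.03, Fbxo32 being lowest at -0.61 and Myl7 highest at 8.07.

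The arrays also allow myocardium to be set against cultured ADSCs, which are not muscle cells, although the design text names no such comparison. The counts here are over the 14 genes well above background on all 6 arrays, since the other 11 entered the fit through the myocardial arrays alone. In limma over 21186 features, 12 of the 14 were higher in myocardium at an adjusted p under 0.05 and 1 was lower. Of the 15896 features well above background on all 6 arrays, 34.7% were higher and 36% lower. For the same 12 genes all 4 myocardial arrays lay above both cell arrays, which held for 38.9% of those features. The treatments lie within each kind of sample here, so their differences enter the spread.

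Pdlim5 was the gene that was lower in myocardium. Its level was 0.42 ± 0.45 (SD, n = 4) in myocardium and 1.79 and 1.70 in unlabelled and labelled cells, a log2 difference of -1.33 ± 0.29 (SE, adjusted p = 0.00669, limma). All 4 myocardial arrays lay below both cell arrays, and the difference stayed between -1.53 and -1.20 under the settings and left-out arrays run. Flnc had 0.33 ± 0.27 (SD, n = 4) in myocardium and 1.04 and 0.60 in the cells. Its difference of -0.49 had a 95% interval from -1.02 to 0.03 and an adjusted p of 0.0848 in limma, and it passed the threshold with normexp correction, with a trended variance and without treated replicate 1.

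The other genes measured in both were higher in myocardium. Cryab was the nearest to the cells, at 5.39 and 5.58 in them and 2.55 ± 0.22 (SE) higher in myocardium, or 5.87-fold. Fhl2 had 0.08 and 0.33 in the cells and was 19.7-fold higher in myocardium. Tpm1 had 1.24 and 1.59 in the cells and was 58.8-fold higher, by the brighter of its 2 probes (3.23-fold with the mean of its probes). These genes also have known roles outside muscle.

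Des had levels of -1.58 and -1.54 in unlabelled and labelled cells and was 125-fold higher in myocardium. Smyd1 had -6.56 and -6.74 and was 178-fold higher. Actc1 had 0.04 and 0.14 and was 336-fold higher. Desmin and cardiac actin are also known from smooth muscle and from developing muscle cells. Troponin subunits followed, with Tnnc1 at -1.98 and -1.71 in the cells (682-fold higher in myocardium), Tnnt2 at -1.26 and -1.59 (741-fold) and Tnni3 at -5.58 and -5.77 (11900-fold). Myom1 had -6.30 and -6.53 in the cells and was 1010-fold higher, Tcap had -3.84 and -3.82 and was 2110-fold higher, and Lmod2 had -7.10 and -5.31 and was 3080-fold higher. The fold of Lmod2 rests on which cell array is used: it was 1650-fold without the unlabelled and 5710-fold without the labelled array. Background correction also mattered for genes dim in the cells, since normexp gave 787-fold for Lmod2, 304-fold for Myom1, 40.5-fold for Smyd1 and 4640-fold for Tnni3. The adjusted p of these 12 genes ran from 1.21e-07 for Myom1 to 0.000106 for Cryab in limma.

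For the 11 genes not well above background on either cell array there are bounds, taken against the higher of the probe's own signal and the lowest signal of any probe well above background on that cell array. These bounds are rough, since a signal above that lowest one can still fail the flag. Actn2, at -6.95 and -6.74 in unlabelled and labelled cells, is a case, where the lowest levels were -7.84 and -7.96. Myl3 was at least 48400-fold and Myl2 at least 38600-fold higher in myocardium. Csrp3 was at least 14300-fold, Mybpc3 at least 8760-fold and Myom2 at least 6930-fold higher. Trim54 was at least 1380-fold and Actn2 at least 802-fold higher. The remaining bounds were at least 655-fold for Tmod1, 98.6-fold for Trim63, 25.4-fold for Myot and 12.9-fold for Pdlim3, each higher in myocardium. No p-value is given for these, since they entered the fit through myocardium alone.

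Tpm1 had 2 probes, and they gave opposite answers. The brighter had 7.70 in sham, 7.0 in PBS, 7.28 and 7.20 in the treated pair, and 1.24 and 1.59 in the cells. The dimmer had -0.01, 0.73, 0.14 and 0.80 on the myocardial arrays and 2.66 and 3.18 in the cells. Myocardium was thus 5.88 ± 0.22 (SE, adjusted p = 3.44e-06, limma on 23521 probes) higher by the first and 2.50 ± 0.29 (SE, adjusted p = 0.000409) lower by the second. Between PBS and sham the brighter probe differed by -0.71 and the dimmer by 0.74, with no test. Tpm1 is known to give muscle and non-muscle transcripts, and which of them each probe reads was not tested.

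Pdlim7, another PDZ and LIM gene of the Z-disc outside the 31, showed the same opposition. One probe was 3.69 ± 0.28 (SE) higher in myocardium than in cells and its partner -2.02 ± 0.18, with adjusted p of 5.79e-05 and 0.000132 in limma. Between PBS and sham they differed by -0.83 and 0.47. Not all pairs of probes disagreed. For Cfl2, Fhl1, Sorbs2, Tnnt1 and Tpm3, also with 2 probes, both differed in the same direction between myocardium and cells. The 2 Vcl probes differed by -0.15 and 0.28, with adjusted p of 0.408 and 0.0693 in limma. The fit on single probes was added after the disagreement was seen.

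**Figure D5:**
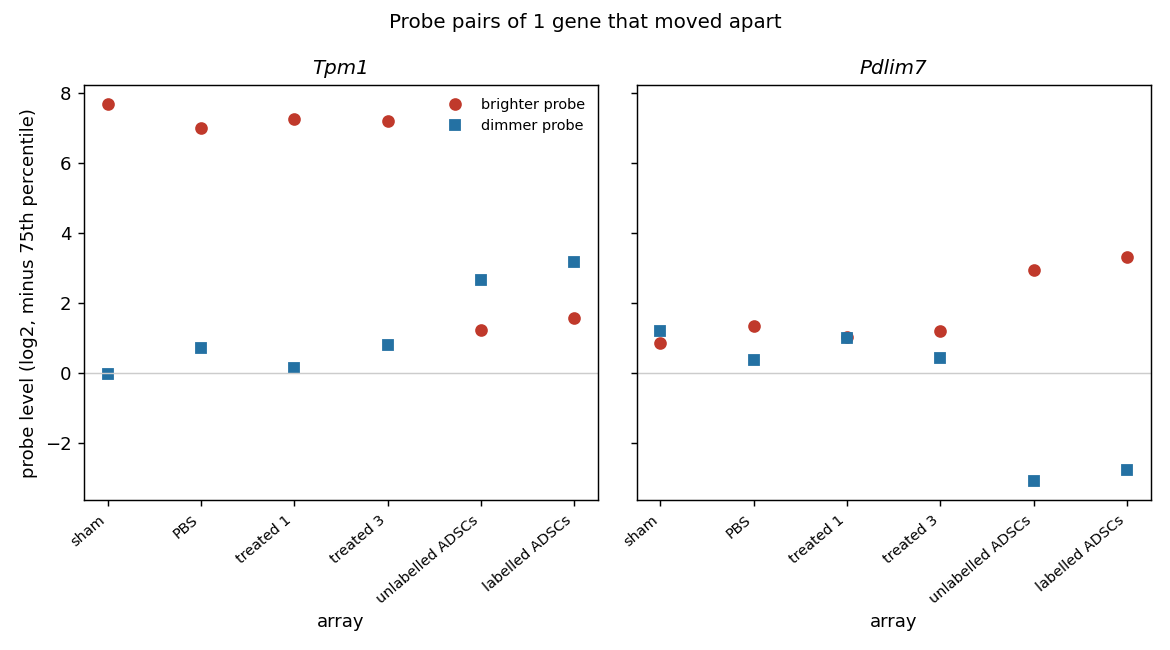
Levels of the 2 probes of Tpm1 (left) and of Pdlim7 (right) on the 6 arrays (log2, minus the 75th percentile of the array); the brighter probe is the one with the higher mean over the arrays. In Tpm1 the brighter probe drops from 7.20 in treated replicate 3 to 1.24 in unlabelled cells while the dimmer one goes from 0.80 to 2.66.

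The last comparison asked whether the label itself altered the cells. Of the 14 genes measured on both cell arrays, 8 were higher and 6 lower in labelled ADSCs, with a median of 0.03 (43.9% of features were higher). One of them, Lmod2, was 2-fold or more apart, where 1.05% of 18276 features were. It was 3.46-fold higher in labelled cells (log2 difference 1.79), at -7.10 in unlabelled and -5.31 in labelled cells. Its 2 spots on the unlabelled array had an SD of 1.796 (log2), as large as the difference, and the difference was 0.21 with normexp correction. The other 13 lay between -0.43 (Flnc) and 0.35 (Tpm1), with Tnnt2 at -0.33 and Tnnc1 at 0.28. With 1 array of each there was no test.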

How the data were processed

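Total RNA from myocardial tissue or cultured ADSCs was labelled with Cy3 and hybridised to 1 Agilent rat design, 1 array per sample, on a single slide, so slide could not be tested as a batch. The deposited scanner output gives intensity values for 58717 non-control spots per array, and the submitters' processing notes name Agilent Feature Extraction 11.0.1.1. A second deposited table holds log2 values. How it was made is not stated in those sources. Its columns tracked log2 processed signal with r of at least 0.9998. Their medians were 8.85 on each myocardial array and 9.67 on each cell array, so the table was used within each kind only.

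Log2 processed signal was taken relative to each array's 75th percentile over non-control spots. Outlier-flagged spots were left out and spots of a probe averaged. Probes were named by matching unversioned accessions to RefSeq genes (GRCr8, used for names and promoter windows, since the file headers name another build), and 18347 of 30367 received a symbol. A probe was well above background where the flag was set for at least 0.5 of its spots.

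Features well above background on at least 1 array of a fit were tested with lmFit and eBayes of limma 3.58.1 in R 4.3.3, with Benjamini-Hochberg adjustment over all features. The fits left 1 residual degree of freedom for treated against PBS or sham, 2 for infarcted against sham and 4 for myocardium against ADSCs. Figures were drawn with matplotlib 3.10.9. Comparisons with 1 array per group had no test and a 2-fold rule. All listed genes found on the array are named. Values on every array were due for the 4 lowest and 2 highest in PBS minus sham and in treated minus sham, for genes measured in the cells and for genes past 2-fold. Up to 4 genes of other lists could be named. The genes and lists were chosen with earlier results of these data known. Alternatives covered background correction (normexp, offset 50, on the median signal), quantile normalization, the percentile over probes well above background on all arrays, the deposited table, the mean of a gene's probes, the filter, the variance model and leaving out single arrays. The 6 settings named in the text are the main one and the first 5 of these.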

Additional observations from a re-analysis of the deposited data

How the results depend on the processing

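The direction of the small differences within myocardium depended on the scaling. For the 14 genes measured in both, the direction of the difference from the cells did not, but its size could. Tnni3, for example, went from 11900-fold to 7430-fold after quantile normalization. For PBS against sham the median over the sarcomere genes was -0.30 and moved to -0.27 with normexp correction, -0.04 after quantile normalization and in the deposited table, -0.24 with the 75th percentile over probes above background on all arrays and -0.25 with the mean of a gene's probes. For treated against sham it was -0.20 and became -0.14 with normexp, -0.16 with the other percentile and -0.11 with the mean of probes, and it turned to 0.04 after quantile normalization and 0.05 in the deposited table. For infarcted against sham it was -0.20, and became -0.15 with the other percentile and 0 after quantile normalization and in the deposited table. For treated against PBS it was 0.12, and 0.04 and 0.06 under the last 2 settings. The cause was not tested. Without single arrays the medians ran from 0.09 to 0.17 for treated against PBS, from -0.23 to -0.19 for treated against sham and from -0.27 to -0.20 for infarcted against sham.

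No sarcomere gene passed an adjusted p of 0.05 in limma within myocardium under any setting run, although up to 84 features in all did with normexp for treated against PBS. Leaving out 1 treated array left the fits of treated against PBS and sham without residual degrees of freedom, so those give values only. For myocardium against ADSCs the median of the 14 genes measured in both was 7.94, and 7.50 with normexp and 7.54 after quantile normalization. With every array required to be above background, 13 of the 14 genes measured in both passed. The other 11 genes are not counted, since they enter the fit through the myocardial arrays alone. Between labelled and unlabelled cells the median of 0.03 turned to -0.01 with normexp, and the count past 2-fold went from 1 to 0 with normexp and in the deposited table, where Lmod2 was not listed for the cells. No paired analysis was possible because the groups compared share fewer than 2 replicate numbers. Low signal limits the cell arrays, where the highest SD between spots of a probe was 1.80 (log2), against 0.44 on the myocardial arrays.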
